A study of Arabidopsis thaliana with 8 samples.

Results

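SUC2 (AT1G22710) of Arabidopsis thaliana was examined in a chromatin immunoprecipitation and sequencing (ChIP-seq) series on MBD7. Its locus was taken as every window that overlaps the gene or the 10 kb on either side of it on chromosome 1, which gave 47 of the 238296 windows of the series. Each window is 1000 bp long and windows start every 500 bp, so neighbouring windows share reads. Of the 47 windows, 5 held at least 500 bp of SUC2, 2 touched its edges, 8 lay within 2 kb of it and 32 formed the outer flanks.

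The series holds 8 libraries from seedlings 14 days old. WT plants carry, per the series title, a transgene with SUC2 under the 35S promoter of cauliflower mosaic virus, and no label gives them a Myc-tagged protein. The other line, named MBD7-5 in the sample names, carries a genomic MBD7 construct with 4 Myc tags under the MBD7 promoter; the labels do not say whether it also carries 35S-SUC2, nor whether its own MBD7 gene is intact. Each line gave 2 input libraries (chromatin before precipitation) and 2 libraries precipitated with a Myc antibody (ChIP), and no label says that the replicates came from separate plantings, so each p-value rests on library-to-library spread that may be purely technical. WT ChIP is labelled with an Invitrogen antibody and MBD7 ChIP with a Millipore one, although the protocol names only the former, so line and antibody cannot be told apart in any comparison of the ChIP libraries.

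SUC2 is a plasma membrane symporter that carries sucrose together with protons, and in companion cells it loads sucrose into the phloem, the tissue that moves sugar from leaves to the rest of the plant. The 35S promoter drives expression in most plant cells, and transgenes that carry it can become methylated and silenced. MBD7 belongs to the methyl-CpG-binding domain family, some of whose members bind methylated DNA.

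Total counts, summed over overlapping windows, were 19224696 to 31459707 in the inputs, 25846940 and 23761267 in MBD7 ChIP, and 7450486 and 4971029 in WT ChIP. The median window over protein-coding genes outside the pericentromeres held 48 to 68 counts in the inputs, 11 and 12 in MBD7 ChIP and only 4 and 3 in WT ChIP, so values of WT ChIP are coarse. Depth is given below as a count divided by that median of the same library, which needs no scaling between libraries.

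The first question was how many copies of SUC2 the chromatin of each line holds, read from input depth. The gene stood above its surroundings in all 4 input libraries, whereas the DNA on both sides did not. Over the 5 SUC2 windows the mean count per window was 179 and 189 in WT input, while MBD7 input held 226 and 145. Over the 16 windows of the outer flank of lower coordinates, which carries annotated genes, the means were 66.4 and 53.4 in WT input, while MBD7 input held 60.4 and 49.2. Every input library thus had a higher mean over the gene than over either flank.

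In units of the median protein-coding window, SUC2 had a depth of 3.10 ± 0.490 in WT input and 3.17 ± 0.212 in MBD7 input (SD, n = 2). The outer flank of lower coordinates had 0.996 ± 0.0359 and 0.956 ± 0.0968, close to the median window. The outer flank of higher coordinates, where the gene table lists no gene, had only 0.428 ± 0.0328 and 0.408 ± 0.0689. Relative to both outer flanks together, SUC2 had a ratio of 4.35 ± 0.698 in WT input, and of 4.65 ± 0.406 in MBD7 input. The ratio depends on the side used, being 3.12 and 3.34 against the lower flank alone and 7.21 and 7.84 against the higher one, both chosen after the values were seen.

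The rise was gradual at the lower end of the gene and abrupt at the higher end. The window from 8032001, which lies wholly in SUC2, held 269 and 280 counts in WT input, while MBD7 input held 301 and 219, the highest of the locus. Towards lower coordinates the window from 8031001 held 178 and 193 counts in WT input. That from 8030501, near the lower end of the gene, held 83 and 84. The mean depth in WT input was 1.40 in the window from 8030501, most of which is SUC2, and 3.12 in that from 8031001. The window from 8030001, with under 500 bp of SUC2, held 31 and 41 counts in WT input, while MBD7 input held 44 and 31. Its depth of 0.611 and 0.646 was below that of a median protein-coding window, although it overlaps the lower end of the annotated gene.

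At the other end the window from 8033001 still held 143 and 142 counts in WT input, while MBD7 input held 157 and 114, a depth of 2.39 and 2.34. The next window, from 8033501, held 13 and 7 counts in WT input, while MBD7 input held 15 and 9. From one window to the next the depth fell to 0.164 in WT input and 0.204 in MBD7 input. With windows of this length, exons cannot be told from introns, and a copy of the whole gene cannot be told from one of its coding part.

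The gene table gives no strand, so both sides of SUC2 were measured and the side of higher coordinates, a stretch with no annotated gene, was treated as the promoter side. Over its 4 windows within 2 kb of the gene, depth was 0.197 ± 0.0799 in WT input and 0.229 ± 0.0509 in MBD7 input. The 4 windows on the lower side, which overlap AT1G22690, AT1G22700 and the long non-coding RNA gene AT1G05763, had 0.961 ± 0.0425 and 1.03 ± 0.0353. On neither side was the mean depth above that of the median window by more than 0.03. The highest mean depth of any window outside SUC2 was 2.12 in WT input and 1.83 in MBD7 input, both in the window from 8022001.

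**Figure D1:**
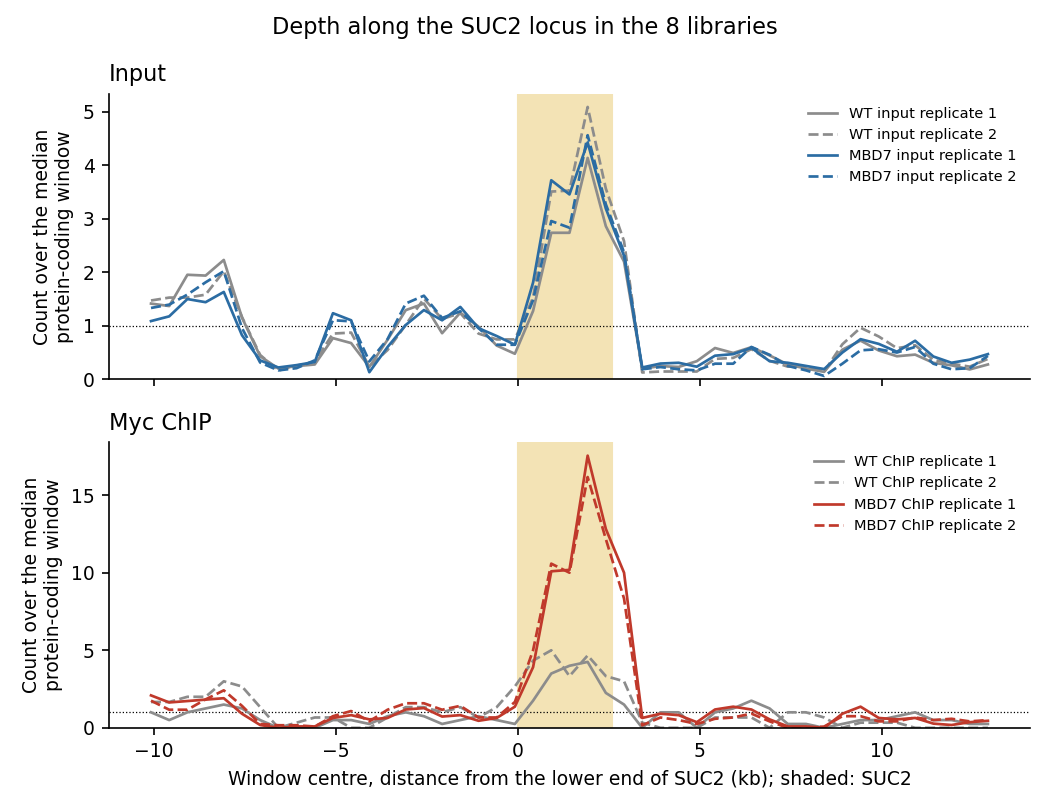
Count per window divided by the library's median protein-coding window outside the pericentromeres (vertical axis) against the distance of the window's centre from the lower end of SUC2 in kb (horizontal axis), with SUC2 shaded and 1 line per library. The inputs of both lines rise to 4.61 (WT) and 4.49 (MBD7) in SUC2, and MBD7 ChIP reaches 16.9 there while WT ChIP stays at 4.46.

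The lines did not differ detectably in input at SUC2. Summed over all 7 windows that touch the gene and scaled by library size with TMM factors (cpm), SUC2 had 31.5 and 39.8 cpm in WT input, while MBD7 input held 37.7 and 35.2, and the 2 groups overlapped. The log2 difference was 0.03 ± 0.15 (SE), with a 95% interval of -0.25 to 0.32, and it did not pass the quasi-likelihood test of edgeR (Benjamini-Hochberg adjusted p = 0.9999). Of all genes, 0.0106% were called in this comparison. Of the 46 locus windows that could be tested, edgeR called 0, with 2 at an unadjusted p under 0.05 and 0 by DESeq2, where 0.0197% of all windows were called by edgeR.

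MBD7, the gene whose tagged copy the MBD7 line carries, did differ between the inputs. Its depth was 1.01 in WT input and 7.71 in MBD7 input, a log2 difference of 2.94 ± 0.15 (adjusted p = 3.26e-09, edgeR). For SUC2 no input library of either line was near 1: the lowest of the 4 stood at 2.75, in WT input replicate 1.

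A depth of this size was uncommon among genes but not unique to SUC2. Of 27444 protein-coding genes, 329 (1.20%) had a depth as high as SUC2 in WT input and 292 (1.06%) in MBD7 input. Relative to the outer flanks of each gene, 92 genes (0.335%) reached the ratio of SUC2 in WT input and 75 (0.273%) in MBD7 input, where the median gene had 1.10 and 1.11. The share of the depth that comes from extra copies was not tested: no genome sequence was used here, and the treatment of reads with several alignments is not given in the sources used here.

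Other sucrose transporter genes also stood above the median window in input. SUC6, SUC7 and SUC8, near relatives of one another, had depths of 2.57, 2.53 and 3.36 in WT input. In MBD7 input they had 2.34, 2.42 and 2.96. SUC9 had 2.00 and 1.90. No label names a transgene with any of them. SUC1 (0.802 and 0.814), SUC3 (0.971 and 0.992), SUC4 (1.40 and 1.36) and SUC5 (1.11 and 1.19) lay nearer to 1.

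**Figure D2:**
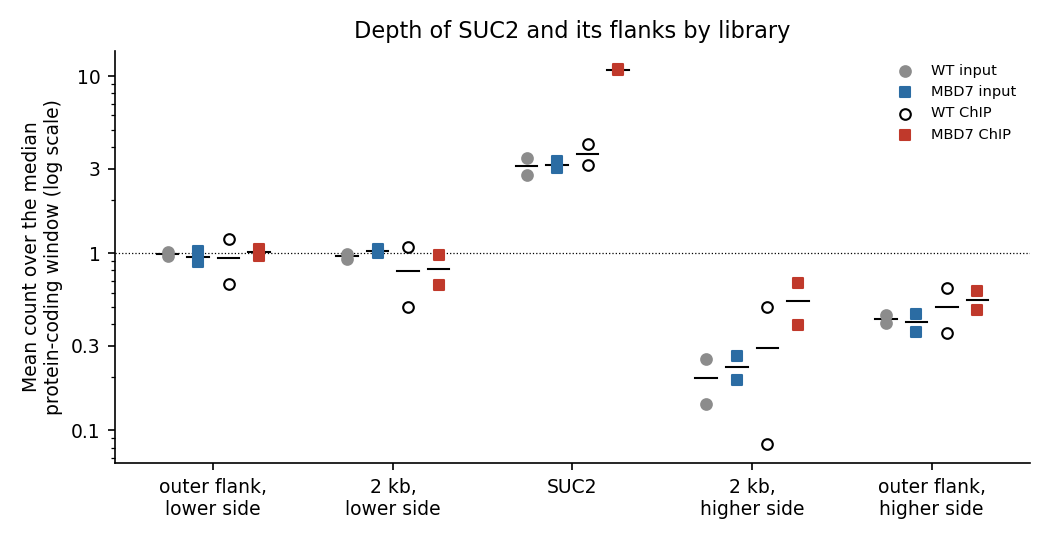
Mean count per window over the library's median protein-coding window (log scale) in SUC2, in the 2 kb on each side and in the outer flanks, with 1 point per library and a bar at the mean of the 2. SUC2 stands at 2.75 to 3.44 in the inputs and at 10.8 and 10.9 in MBD7 ChIP, and the mean of either flank stands near or below 1 in every group.

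The second question was whether the tagged protein was enriched over SUC2 beyond the extra input depth. SUC2 rose in MBD7 ChIP against MBD7 input, and the difference did not pass the test in WT plants. MBD7 ChIP had 103 and 99.7 cpm over SUC2, against 37.7 and 35.2 in MBD7 input, and both ChIP libraries lay far above both inputs. SUC2 rose by 1.48 ± 0.15 on the log2 scale (adjusted p = 1.65e-07, edgeR), a fold of 2.78. WT ChIP had 31.0 and 45.4 cpm, which spans the 31.5 and 39.8 of WT input.

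In WT the log2 difference was 0.08 ± 0.19 and did not pass (adjusted p = 0.857, edgeR), with a 95% interval of -0.29 to 0.45. The enrichment differed between the lines by 1.40 ± 0.24 (interaction term, adjusted p = 6.18e-04, edgeR). MBD7 ChIP was also above WT ChIP, by 1.43 ± 0.19 (adjusted p = 2.81e-05). The last 2 comparisons share libraries with the first and are not independent of it. Of all 37898 genes tested, 16.8% were called higher in MBD7 ChIP against its input, 7.62% in WT ChIP against its input (9.25% in either direction), 8.86% in the interaction and 8.93% in MBD7 ChIP against WT ChIP. As many as 2738 genes (7.23%) had a log2 difference from input at least as high as SUC2 in the MBD7 line, so many genes exceeded it.

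These directions take most genes as unchanged. When scaled by library size alone, all genes had a median in MBD7 ChIP against input that moved from -0.15 to -1.57. SUC2 then had 0.05 there and no longer passed (adjusted p = 0.755, edgeR), and WT ChIP against WT input turned to -1.003 (adjusted p = 4.29e-04). A measure within each library avoids that choice. In MBD7 ChIP the depth of SUC2 over its outer flanks was 13.8 and 14.0, against 4.94 and 4.37 in MBD7 input. In WT ChIP it was 4.80 and 5.29, against 3.86 and 4.85 in WT input.

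Divided by input, SUC2 was thus 2.98 ± 0.0343 times as enriched as its flanks in the MBD7 line and 1.16 ± 0.0797 times in WT (SD, n = 2). Each ChIP library was divided by the mean of the 2 inputs of its line, so these SDs leave out the spread of the inputs. Leaving out 1 library moved the values to between 2.81 and 3.18 in the MBD7 line and between 1.04 and 1.31 in WT. Every MBD7 ChIP library exceeded every MBD7 input, and the WT groups overlapped. An exact two-sided permutation test of 2 libraries against 2 cannot go below 0.333, and gave 0.333 in the MBD7 line and 0.667 in WT. Among 27444 protein-coding genes measured in the same way, 58 (0.211%) had as high a value in the MBD7 line and 7149 (26.1%) in WT, where the median gene stood at 0.901 and 0.935.

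In MBD7 ChIP the log2 difference from input was larger in the windows at the higher end of SUC2. In the window from 8030501 MBD7 ChIP held 43 and 60 counts, and its log2 difference from input was 1.05 ± 0.20. In the window from 8032001 it held 193 and 194 counts, with a log2 difference of 1.53 ± 0.17. Over the higher edge, from 8033001, it held 110 and 100 counts and had 1.59 ± 0.17. All 6 windows from 8030501 to 8033001 passed (adjusted p from 2.34e-05 down to 4.92e-11, edgeR), and were the only windows called higher among the 46 tested. Over all windows, 18.1% were called higher. The window from 8030001 had 0.86 ± 0.33 and did not pass (adjusted p = 0.0509).

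No window passed in WT ChIP against WT input. WT ChIP held 7 and 13 counts in the window from 8030501 and 17 and 14 in that from 8032001, where WT input held 83 and 84 and then 269 and 280. The log2 differences from input were 0.77 ± 0.38 and -0.32 ± 0.29. In WT edgeR called 0 of 46 windows, with 3 at an unadjusted p under 0.05 and 0 by DESeq2, where 5.59% of all windows were called by edgeR.

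The interaction was larger in the windows of higher coordinates. It was 0.28 ± 0.40 in the window from 8030501, which did not pass (adjusted p = 0.816), and 1.10 ± 0.34 in that from 8031001, 1.32 ± 0.35 from 8031501 and 1.86 ± 0.32 from 8032001. The window from 8032501 had 2.08 ± 0.36, and the higher edge, from 8033001, had 2.01 ± 0.39. These 5 windows passed (adjusted p at most 0.0368, edgeR) and were the only ones of the locus to do so, against 6.54% of all windows called higher. Fewer locus windows passed without MBD7 input replicate 2, without WT input replicate 2 or without WT ChIP replicate 2. The share of all windows that passed fell in these fits as well. The same 5 windows were higher in MBD7 ChIP than in WT ChIP, by 1.24 to 2.12 (5.78% of all windows). The windows overlap, so these are not 5 independent results, and the trend along the gene was not itself tested. From the window at 8030501 to that at 8032501, ChIP against input went from 1.048 to 1.575 in the MBD7 line. In WT it went from 0.768 to -0.504, so more of the climb of the interaction came from the fall in WT. WT ChIP held only 7 to 17 counts in these windows.

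**Figure D3:**
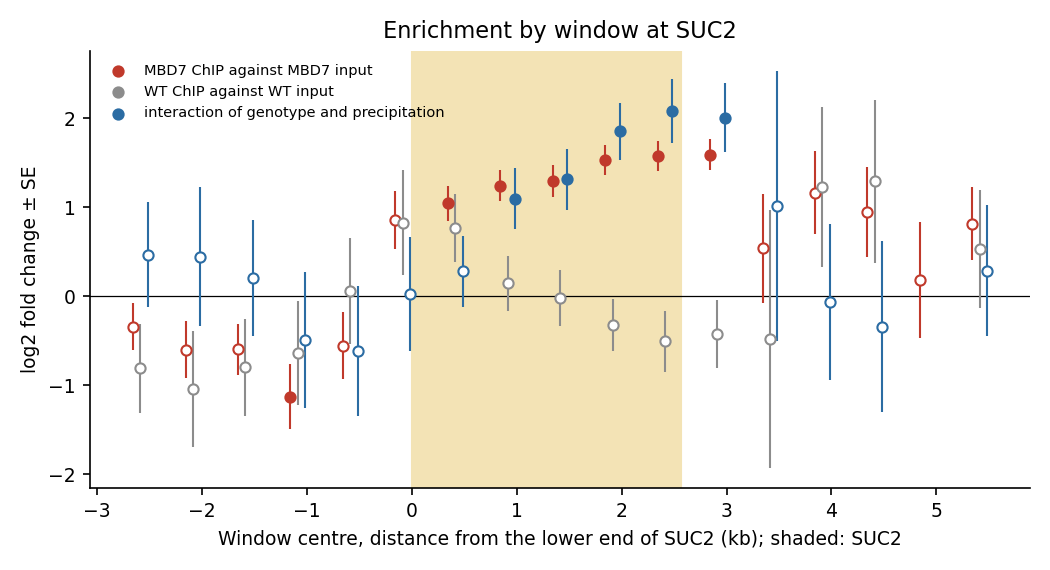
log2 fold change ± SE by window near SUC2 (shaded) for MBD7 ChIP against MBD7 input, WT ChIP against WT input and the interaction of both, against the distance of the window's centre from the lower end of SUC2 in kb. Filled points passed at an adjusted p of 0.05 and open ones did not, points with an SE of 2 or more are left out, and the interaction reaches 2.08 in the window from 8032501.

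Outside the gene counts were low and no window was called higher. The 40 windows that do not touch SUC2 held at most 23 and 29 counts in the MBD7 ChIP libraries, with medians of 7 and 8. On the promoter side MBD7 ChIP had mean counts of 7.50 and 4.75 per window over the 4 windows within 2 kb, where MBD7 input had 18 and 9.25. WT ChIP had 2.00 and 0.25 there. Input-corrected depth over the outer flanks was 2.56 and 1.53 in the MBD7 line and 2.75 and 0.385 in WT, so the lines overlapped and the WT libraries lay far apart. The log2 differences from input in these 4 windows were 0.18 to 1.17 in the MBD7 line and -6.10 to 1.29 in WT, and none passed. At these counts a rise of the size in the MBD7 line could not be told from no change.

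In all, 4 windows fell in MBD7 ChIP against input, where 6.19% of all windows did. They started at 8024501 (-2.26 ± 0.81), 8025001 (-1.13 ± 0.33), 8029001 (-1.13 ± 0.36) and 8037501 (-2.95 ± 1.00). The MBD7 ChIP counts behind the first and last were 1 and 1, and 1 and 0. Of the 6 neighbouring genes in the locus, AT1G22680 alone was called, with a log2 difference of -0.69 ± 0.25 (adjusted p = 0.0412, edgeR) that no longer passed under 13 of 15 alternatives. Over all genes 13.4% were called lower in this comparison. The other 5 had -0.78 to -0.16, with AT1G22660 at -0.16 ± 0.14 and AT1G22670 at -0.19 ± 0.19.

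No other sucrose transporter gene was called higher in MBD7 ChIP against input. Over all genes 16.8% were called higher and 13.4% lower in this comparison. Of the 8 others, edgeR called 0 higher and 1 lower there, with 3 at an unadjusted p under 0.05 and 0 called by DESeq2. The edgeR counts are near the shares of all genes. The median log2 difference of the 8 was -0.20 beside -0.15 for all genes. SUC5 was at -0.49 ± 0.18 (adjusted p = 0.0453), a call lost under 12 of 15 alternatives. SUC6, SUC7 and SUC8, whose input depth resembled that of SUC2, had 0.03 ± 0.13, -0.05 ± 0.16 and -0.11 ± 0.17. Their 95% intervals ended at 0.29, 0.27 and 0.23, below the lower end of 1.18 for SUC2. Reads of near-identical members may be split between them.

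SUC3, a family member with a longer protein than SUC2, had 0.50 ± 0.25 in the interaction and did not pass (adjusted p = 0.243, edgeR). In the interaction edgeR called 0 of the 8 other members, with 0 at an unadjusted p under 0.05 and 0 by DESeq2. Over all genes 8.86% were called higher and 2.34% lower in the interaction, so 0 of 8 is near the share of all genes.

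Genes that work beside SUC2 in sucrose transport and the phloem showed no common rise. Of 16 such genes 0 rose and 2 fell in MBD7 ChIP against input by edgeR, with 6 at an unadjusted p under 0.05 and 1 called by DESeq2, and their median was -0.17. With 16.8% of all genes called higher and 13.4% lower, the count of lower genes is near the share of all genes. SULTR2;1, a sulfate transporter of vascular tissue, fell from 15.2 ± 0.358 to 8.45 ± 1.28 cpm, a log2 difference of -0.84 ± 0.18 (adjusted p = 1.10e-03), and passed under all 15 alternatives. AKT2, a potassium channel of the phloem, was at -0.44 ± 0.16 (adjusted p = 0.0457), which was lost under 11 of 15. AHA3, a plasma membrane proton pump, had -0.30 ± 0.13, and SEOR1, a filament protein of sieve elements, had -0.32 ± 0.15. SUS6, a sucrose synthase, had -0.29 ± 0.16, APL, a regulator of phloem identity, had -0.05 ± 0.17 and CALS7, a callose synthase of the phloem, had -0.02 ± 0.14. None of these 5 passed.

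CWINV1, a cell wall invertase that splits sucrose, was lower in the interaction by -0.96 ± 0.29 (adjusted p = 0.0358, edgeR), where 2.34% of all genes were called lower. Its WT ChIP libraries had 15.5 and 26.4 cpm, and the call was lost under 10 of 14 alternatives. SPSA1, an enzyme of sucrose synthesis, was higher in MBD7 ChIP than in WT ChIP by 0.57 ± 0.18 (adjusted p = 0.0498), which was lost under 11 of 15. The exporters SWEET11 and SWEET12, which release sucrose from leaf cells ahead of uptake by SUC2, had input depths of 0.664 and 0.941 in WT input and passed in none of the comparisons.

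**Figure D4:**
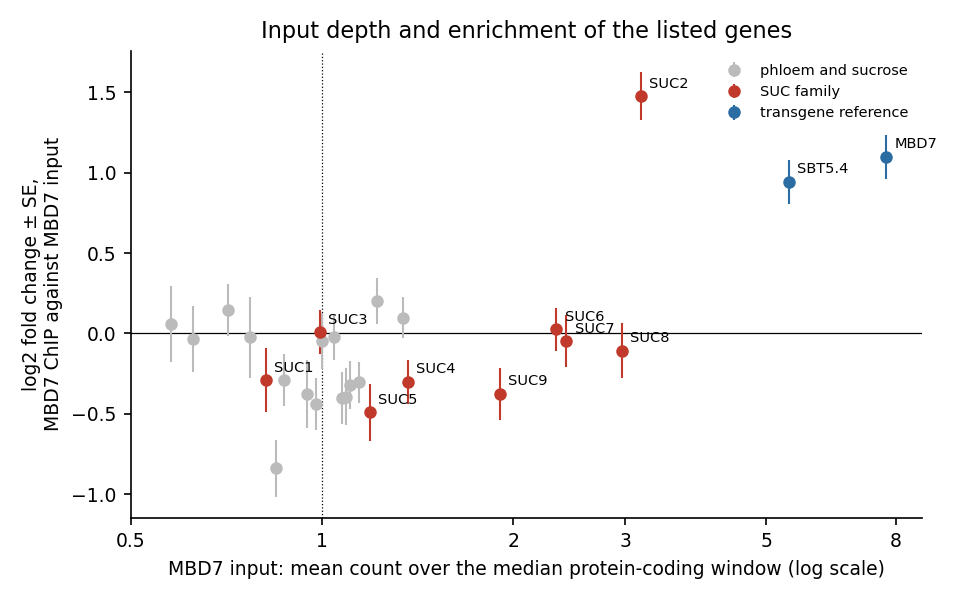
log2 fold change ± SE of MBD7 ChIP against MBD7 input (vertical axis) against the depth in MBD7 input over the median protein-coding window (horizontal axis, log scale) for the SUC family, the phloem and sucrose genes, and MBD7 and SBT5.4. SUC2 at 1.48 stands above SUC6, SUC7 and SUC8 at 0.03, -0.05 and -0.11, although all 4 had a depth of 2.34 to 3.17. Over its own outer flanks, which are not plotted, SUC8 had only 0.629 in MBD7 input.

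MBD7 rose in both lines. It rose in MBD7 ChIP against its input by 1.10 ± 0.14 and in WT ChIP against its input by 1.38 ± 0.19 (adjusted p = 2.37e-06 and 6.12e-05, edgeR). With library size alone, MBD7 turned to -0.32 in the MBD7 line. In WT the call of MBD7 was lost under library size alone, but no alternative took its value below 0.29. SBT5.4, whose input depth was also higher in the MBD7 line, had 0.94 ± 0.14 and 0.96 ± 0.18, which turned to -0.47 and -0.13. Input-corrected depth over the outer flanks, measured within each library, was 2.915 for MBD7 in the MBD7 line and 3.22 in WT. For SBT5.4 it was 2.575 and 2.455. In WT 58 genes (0.211%) had a value as high as that of MBD7. In the interaction MBD7 had -0.28 ± 0.23 and SBT5.4 had -0.01 ± 0.22, and neither passed.

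The protein-coding genes most like SUC2 were sought by the root mean square difference of log2 depth over the 8 libraries. The closest was AT3G43574, with a difference of 0.312, followed by AT1G18193 (0.313), AT3G24542 (0.325), AT3G23685 (0.339) and AT1G34910 (0.362). Their depth was 2.45 to 3.45 in WT input, 2.545 to 3.217 in MBD7 input and 7.67 to 8.42 in MBD7 ChIP. SUC2 had 3.10, 3.17 and 10.8. Each of these genes thus stood higher in MBD7 ChIP than in MBD7 input, so such a rise is not particular to SUC2. The genes were picked on these same depths, ChIP included, so their likeness to SUC2 is not a separate result. WT ChIP had 3.33 to 4.78 over them and 3.64 over SUC2. AT3G43574 and AT1G34910 lie in a pericentromere and the other 3 in the arms.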

How the data were processed

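ChIP and input libraries of both lines were sequenced from chromatin cut to about 500 bp. The authors deposited raw read counts per window of 1000 bp, at steps of 500 bp over TAIR10; Bowtie2, SAMtools and featureCounts are named, per the submitters' processing notes, with versions not given in the sources used here. Counts per gene were summed over the windows that overlap it, with spans from the RefSeq gene table (TAIR10.1), so a read can count in 2 windows. edgeR 4.0.16 (quasi-likelihood, TMM, filterByExpr) was fitted to 4 groups of 2 libraries over all genes and over all windows, with Benjamini-Hochberg adjustment and a threshold of 0.05. DESeq2 1.42.0 was an alternative, as were other scalings, no filter on low counts, every second window, only the groups compared, a replicate block and leaving out each library. Intervals are 1.96 SE on either side. The fits were also run on data simulated from the inputs, with few features changed and in balanced directions. Such data do not test TMM scaling where many genes differ. Pericentromeres were set by hand at rounded bounds.

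By the rule for named genes, the locus windows are given by region and the genes of the locus, the transporters, the phloem and sucrose genes, MBD7 with SBT5.4 and the 5 genes most like SUC2 could be named; list members not named singly are in the counts. The members and lists were chosen with earlier results of these data known. Each flank alone as denominator, and the lower side of the gene, were added after seeing the data.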

Additional observations from a re-analysis of the deposited data

Results flagged for a closer look

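The enrichment of ChIP over input differed between the lines by the interaction term (edgeR, adjusted p under the threshold) for SUC2, at 1.40 on the log2 scale, and for CWINV1, at -0.96. It also differed for 5 overlapping windows of the SUC2 locus. The window from 8031001 had 1.10, that from 8031501 had 1.32, that from 8032001 had 1.86, that from 8032501 had 2.08 and that from 8033001 had 2.01. Line and antibody vendor cannot be told apart in these values.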

How the results depend on the processing

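Leaving library size alone aside, SUC2 kept its direction and its call in MBD7 ChIP against input (1.43 to 1.59) under every alternative run. The same held in the interaction (1.21 to 1.74) and in MBD7 ChIP against WT ChIP (1.26 to 1.79). With library size alone included, the lowest values in the interaction and in MBD7 ChIP against WT ChIP were 1.05 and 1.20, and neither call was lost. Under library size alone SUC2 had 0.051 in MBD7 ChIP against input and -1.003 in WT ChIP against input. Called locus windows went from 10 to 45, from 0 to 34 in WT, from 5 to 3 in the interaction and from 0 to 1 between inputs. Over all windows that scaling called 93.45%, 83.94%, 3.65% and 0.563% in these comparisons. Of the calls over all windows, only 1.73% in MBD7 ChIP against input and 0.838% in WT were higher. The counts of 45 and 34 are thus not particular to this locus. DESeq2 called 6 in place of 10 in MBD7 ChIP against input, and 16.68% of all windows in place of 24.26%. With 1 library left out, the number of locus windows called stayed as it was in WT and between inputs. It varied in MBD7 ChIP against input, in the interaction and between ChIP groups, and the share of all windows called varied too. SUC2 then had 1.43 to 1.59 in MBD7 ChIP against input and -0.18 to 0.35 in WT. It had 1.21 to 1.74 in the interaction, -0.13 to 0.21 between inputs and 1.26 to 1.79 between ChIP groups.

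The depth of SUC2 over its flanks in WT input was 3.10 over the median window, 5.30 with every second window, 3.12 over the lower flank and 7.21 over the higher one. In MBD7 input these were 3.17, 5.64, 3.34 and 7.84. Averaging every window that touches SUC2, still over both outer flanks, gave 3.95 there. In WT ChIP they were 3.64, 5.95, 4.06 and 8.29, with 4.31 for every window that touches SUC2. In MBD7 ChIP they were 10.8, 16.9, 10.7 and 20.1, with 11.9 for every window that touches SUC2. The SUC2 windows of MBD7 ChIP had 14.2 against all windows outside the gene. On the promoter side WT input had 1.35 with the lower side in its place and 0.470 over the higher flank; MBD7 input had 1.51 and 0.558, with 0.229 over the median window and 0.243 over the lower flank. WT ChIP had 1.07 with the lower side, and MBD7 ChIP had 1.05 and 0.969. Input-corrected depth was 1.299 in WT over the lower flank, and in the MBD7 line 3.02 outside the gene, 3.42 over the median window, 3.20 and 2.57 over each flank.

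With 1 library left out, input-corrected depth was 2.81 to 3.18 in the MBD7 line and 1.04 to 1.31 in WT. Depth of SUC2 over its flanks was then 3.86 to 4.85, 4.37 to 4.94, 4.80 to 5.29 and 13.8 to 14.0 in WT input, MBD7 input, WT ChIP and MBD7 ChIP.

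Library size alone reversed, in MBD7 ChIP against input, SUC3 (-1.42), SUC6 (-1.40), SWEET13 (-1.37), SUS5 (-1.28), SPSA1 (-1.33), STP1 (-1.22), MBD7 (-0.32) and SBT5.4 (-0.47). In WT it reversed SULTR2;1 (-1.03), SUS5 (-0.63), PP2-A1 (-0.74), FTIP1 (-1.04), STP1 (-1.04) and SBT5.4 (-0.13). The median of all genes also moved, from -0.15 to -1.57 in MBD7 ChIP against input and from -0.02 to -1.11 in WT. Of these reversed genes, only MBD7 and SBT5.4 had been called with TMM factors, so the reversals are not particular to the genes named. Why the scalings differ was not tested.

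Same-numbered libraries deviated together with correlations of -0.00619 to 0.0478 over windows, so the numbers are not shown to pair them. With the replicate block SUC2 had 1.47, 0.08, 1.39, 0.04 and 1.43. In MBD7 ChIP against input 12 locus windows were then called, where 23.92% of all windows were. Counts of 3 and 4 per median window limit WT ChIP.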
